A study of Homo sapiens with 3 samples.

Results

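Immune checkpoint and natural killer (NK) cell ligands are surface proteins that a tumour cell can present to T cells, NK cells and macrophages. The genes of 10 such ligands were read in SH-SY5Y, out of 59152 gene names in the deposited table, by matching each name to its Ensembl identifier in GENCODE 29: CD276, CD274, PDCD1LG2 and VTCN1 of the B7 family, CD47, the nectin family genes PVR and NECTIN2, and the NKG2D ligand genes MICA, MICB and ULBP2. SH-SY5Y is a cloned human neuroblastoma line, so the values describe 1 line and not a tumour. The series holds 1 group of 3 RNA-seq libraries (replicates 1 to 3), each from its own flask of adherent cells at about 60% confluency in medium with 10% serum. The labels name no treatment, no genotype change and no second line. The comparisons are therefore of each gene with a fixed level and of genes with each other inside the same libraries.

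The B7 proteins and their relatives bind receptors on T cells and mostly restrain them, the best known pair being PD-L1 and PD-1. CD47 binds SIRP alpha on macrophages and holds back engulfment. PVR and NECTIN2 bind the activating receptor DNAM-1 and the inhibitory receptors TIGIT, CD96 and PVRIG on NK and T cells, while MICA, MICB and the ULBP proteins engage the activating receptor NKG2D and are known as stress-induced ligands. In neuroblastoma, CD276 is a target of antibody and CAR T cell approaches.

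Levels are given in FPKM, which divides the fragments of a gene by transcript length and by library size, and errors are SDs over the 3 libraries. A gene was called above or below 1 FPKM with limma's moderated test on log2(FPKM + 0.1) across all genes, at a Benjamini-Hochberg adjusted p under 0.05. Depth was estimated from the even steps of low FPKM values at about 21.6, 28.8 and 43.3 M reads (M for a factor of 1e6) in replicates 1, 2 and 3. At those depths a transcript of 1 kb effective length with 3 reads would have 0.139, 0.104 and 0.0693 FPKM. This floor, computed for each gene from its own length, reflects counting error alone. All 7 sympathetic neuroblast markers were called above 1 FPKM, among them STMN2 (2405 ± 71.9 FPKM) and HAND2 (454 ± 9.18 FPKM), so the defining markers of the labelled cell type were present. Of 16 immune cell markers 1 was called above, CD8A at 1.87 ± 0.119 FPKM, and 10 below, beside 24.6% of protein-coding genes tested called below. CD3D, CD3E, NCR1, ITGAM and AIF1 were listed at 0 in every library. The immune markers summed to between 3.13 and 4.26 FPKM per library. Of 6 endothelial and fibroblast markers, the matrix genes DCN (14.7 ± 2.14 FPKM), LUM (3.95 ± 0.626 FPKM) and COL1A1 (3.79 ± 0.456 FPKM) were called above, 2 below, and CDH5 was listed at 0. The list summed to between 19.9 and 25.8 FPKM per library, and its part in the results was not tested. In bulk RNA, fewer cells that express a gene and less RNA per cell cannot be told apart.

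The 10 ligand genes fell into a high set and a low set with no value in between. CD276, PVR, CD47 and NECTIN2 lay between 15.8 and 80.7 FPKM in every library, and the other 6 genes at or below 0.605 FPKM. With PDCD1LG2 listed at 0 and not tested, 4 of the 9 genes tested were called above 1 FPKM, beside 45.5% of all genes tested and 70.6% of the protein-coding ones. The other 5 were called below, beside 43.7% of all genes tested and 24.6% of the protein-coding ones. The split into 4 and 5 lies close to that of all genes. All 10 ligand genes are protein-coding, and beside that class a smaller share was called above and a larger share below. That contrast rests on few genes and was not tested. The median of the 10 was 0.352 FPKM, beside 5.4 FPKM for all 19680 protein-coding genes in the table, untested ones included in both. In order of level the genes were CD276, PVR, CD47, NECTIN2, ULBP2, CD274, MICA, VTCN1, MICB and PDCD1LG2. PVR lay above CD47 by 0.14 ± 0.08 log2 units, in every library, the smallest gap in the high set. MICA, VTCN1 and MICB lay at or near the 3-read floor, so their order among themselves is not resolved at this depth.

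**Figure D1:**
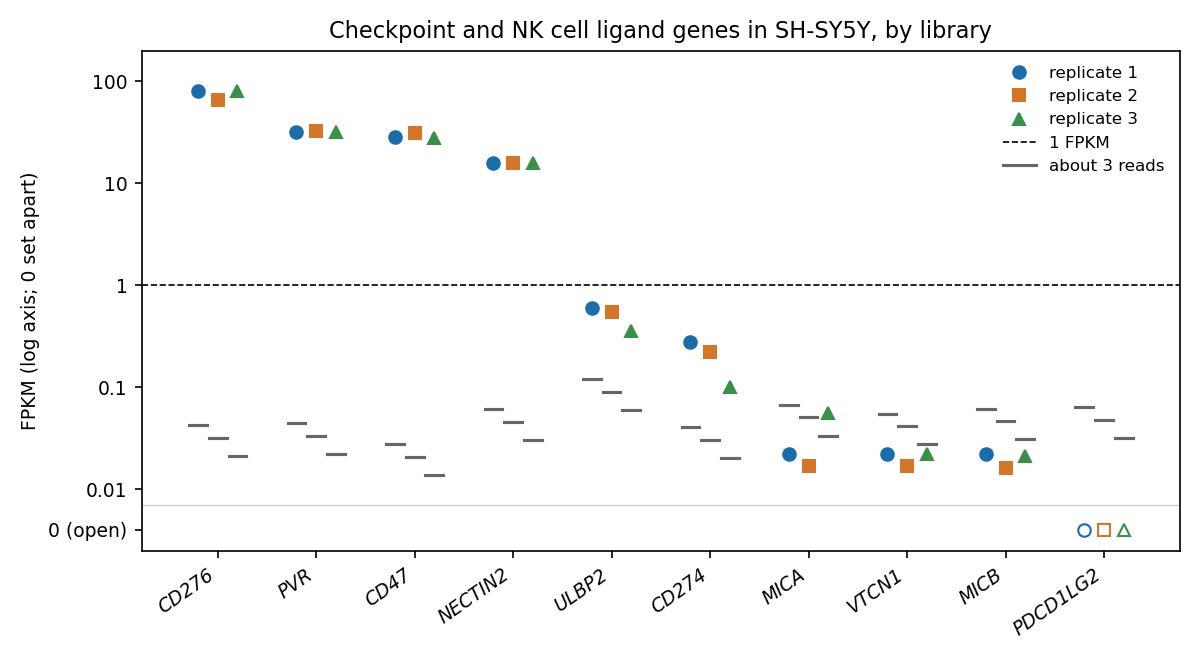
FPKM of the 10 ligand genes in each of 3 SH-SY5Y libraries (points by replicate, log axis, listed zeros as open points set apart), with grey bars at the value of about 3 reads for that gene and library and a dashed line at 1 FPKM. CD276, PVR, CD47 and NECTIN2 sit between 15.8 and 80.7 FPKM, while MICB and VTCN1 lie under their 3-read bars in every library.

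CD276, which encodes B7-H3, a B7 family protein that restrains T cells, was the highest of the ligand genes. It had 80.6, 66.0 and 80.7 FPKM in replicates 1, 2 and 3, a mean of 75.8 ± 8.45 FPKM (6.10 log2 units over 1 FPKM, SE 0.0991, limma adjusted p = 3.17e-05). Replicate 2 was the low one and the other two agreed closely. That level is higher than in 92.3% of the protein-coding genes in the table. The gene lies on chromosome 15 (73683966 to 73714518, plus strand, GRCh38), and no other annotated gene overlaps it. RefSeq (GRCh38.p14) gives it a pair of promoters, and the upstream one is printed because it belongs to the most abundant ligand. It spans chr15:73684133-73684432 on the plus strand, from 250 bases before the start site to 50 after it. Capitals mark every match, on either strand, to the GC box GGGCGG or the CCAAT box CCAAT:
CD276: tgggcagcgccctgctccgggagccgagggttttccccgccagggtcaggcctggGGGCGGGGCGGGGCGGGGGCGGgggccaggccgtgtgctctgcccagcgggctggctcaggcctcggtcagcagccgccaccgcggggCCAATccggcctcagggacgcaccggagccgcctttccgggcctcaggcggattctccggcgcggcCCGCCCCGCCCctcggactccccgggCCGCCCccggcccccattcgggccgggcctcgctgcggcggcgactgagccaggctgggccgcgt
It holds 7 GC box matches, some of them overlapping, and 1 CCAAT match, in a window of 80.3% G and C. Over all 35116 RefSeq promoters of this length, 45.0% hold a GC box match and 34.6% a CCAAT match, and the median GC content is 58.7%.

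CD274, which encodes PD-L1, stood far lower. It had 0.276, 0.224 and 0.1 FPKM in replicates 1, 2 and 3, about 20.5, 22.2 and 14.9 reads, and was called below 1 FPKM (0.2 ± 0.0904 FPKM, log2 -1.92, limma adjusted p = 0.00336). Its value in replicate 3 was the lowest of the 3, though that library was the deepest, and all 3 values lay above its 3-read floor of 0.0403, 0.0302 and 0.0201 FPKM. PDCD1LG2, which encodes the other PD-1 ligand PD-L2, was listed at 0 in all 3 libraries, where 3 reads would be 0.0642, 0.0481 and 0.0320 FPKM. A listed 0 can also be a failed estimate. VTCN1, the gene of the T cell inhibitor B7-H4, had 0.022, 0.017 and 0.022 FPKM, about 1.2, 1.2 and 2.4 reads, under its floor in every library. Within libraries CD276 exceeded CD274 by 8.03 ± 0.55 log2 units, in all 3 of them, and its mean was 379 times as high. With 3 libraries an exact two-sided sign-flip test reaches no smaller p than 0.25, the value it gave here (0.292 after adjustment over 7 pairs), so this difference did not pass the threshold. No difference is given for pairs with VTCN1, PDCD1LG2, MICA or MICB, whose values lie at the floor or at 0.

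The promoter of CD274 (chr9:5450292-5450591, plus strand, RefSeq, GRCh38.p14) is printed because PD-L1 is known as an interferon-gamma target. Capitals mark matches, on either strand, to the interferon-stimulated element (GAAANN followed directly by GAAA), the STAT site TTCNNNGAA and the GC box GGGCGG:
CD274: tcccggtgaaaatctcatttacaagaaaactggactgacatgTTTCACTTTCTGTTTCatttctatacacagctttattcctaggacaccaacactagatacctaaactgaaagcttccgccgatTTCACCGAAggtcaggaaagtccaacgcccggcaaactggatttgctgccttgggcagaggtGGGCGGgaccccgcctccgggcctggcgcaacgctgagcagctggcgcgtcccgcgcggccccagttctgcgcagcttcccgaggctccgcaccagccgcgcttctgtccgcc
A pair of overlapping interferon-stimulated element matches, read on the opposite strand, begin at -208 and -202 from the start site, and a STAT site match begins at -125. Such matches occur in 3.57% and 7.66% of all RefSeq promoters of this length. None of the other 9 promoters of these ligand genes held either. A match to letters is a description and does not show that a factor binds.

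The interferon-gamma pathway itself, which is known to switch on CD274, was mostly above the level, as most protein-coding genes were. Calls above 1 FPKM were made for 10 of 11 genes and a call below for 1, beside 70.6% of protein-coding genes called above, and the list's median was 19.8 FPKM. In TPM 8 were called above. The receptor chains IFNGR1 and IFNGR2 had 19.8 ± 0.903 and 52.9 ± 0.302 FPKM. Their kinase JAK1 had 38.1 ± 1.97 FPKM. On the other strand IFNGR2 overlaps TMEM50B (14.2 ± 1.46 FPKM) and JAK1 overlaps RAVER2 (15.5 ± 0.198 FPKM), so both values are uncertain. JAK2 (1.83 ± 0.315 FPKM) and IRF1 (1.63 ± 0.219 FPKM), an interferon-induced transcription factor, stood near the level, and neither was called above after rescaling to TPM (limma adjusted p = 0.0695 and 0.184). The feedback inhibitor SOCS1 was the lowest and the member called below (0.165 ± 0.102 FPKM), beside RMI2 on the other strand at 22 ± 3.5 FPKM. Genes whose proteins stabilise, modify or remove PD-L1 or CD47 protein gave 9 calls above and 2 below among 11 (median 22.4 FPKM), a share not far from the 70.6% of protein-coding genes called above. STT3A, an oligosaccharyltransferase subunit that glycosylates PD-L1, was highest at 131 ± 2.79 FPKM, followed by the ubiquitin ligase STUB1 (84.6 ± 6.13 FPKM) and the kinase CDK5 (61.7 ± 7.90 FPKM). CMTM6, which keeps PD-L1 on the cell surface, had 17.1 ± 0.529 FPKM. On the other strand STT3A overlaps FEZ1 (67.5 ± 3.69 FPKM), STUB1 overlaps JMJD8 (41.2 ± 2.24 FPKM), CDK5 overlaps SLC4A2 (109 ± 5.86 FPKM) and CMTM6 overlaps CMTM7 (24.9 ± 0.889 FPKM). STT3A also shares its own strand with CHEK1 (48 ± 6.55 FPKM), and no source used here gives the strand setting of the counting, so these values are uncertain.

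Other B7 and butyrophilin genes lay on both sides of the level. Of 12, 6 were called above 1 FPKM, 3 below and 2 neither, and CD80 was listed at 0. The shares among protein-coding genes tested were 70.6% above and 24.6% below. Those called above came from both kinds of gene, and those called below included the butyrophilin gene BTN1A1 (0.114 ± 0.0117 FPKM). The butyrophilin genes BTN3A1 (12.3 ± 0.848 FPKM), BTN2A1 (9.69 ± 0.419 FPKM) and BTN3A2 (8.61 ± 0.638 FPKM), whose products present phosphoantigen signals to gamma delta T cells, were the 3 highest. NCR3LG1, which encodes B7-H6, the ligand of the NK receptor NKp30, had 6.26, 6.18 and 6.55 FPKM and was called above (log2 2.55, limma adjusted p = 6.75e-05); it was singled out after its values were seen. CD86, the costimulatory partner of CD80, was lowest among those above 0, at 0, 0.029 and 0 FPKM.

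CD47 had 28.3, 31.4 and 27.8 FPKM in replicates 1, 2 and 3, a mean of 29.2 ± 1.94 FPKM (log2 4.73, SE 0.0773, limma adjusted p = 3.18e-05). Replicate 2, the low library for CD276, was the high one for CD47. CD276 exceeded CD47 by 1.37 ± 0.26 log2 units, with the same sign in each library (exact sign-flip p = 0.25, two-sided, the smallest possible, 0.292 adjusted). CD47 lies on chromosome 3 (108043094 to 108091862, minus strand) with no annotated overlap. Its macrophage receptor gene SIRPA had 0.806, 0.723 and 0.644 FPKM and was called below 1 FPKM (limma adjusted p = 0.0187), a call lost without replicate 2 (0.0848) and without replicate 3 (0.0968). Of 4 genes for secreted or membrane partners of CD47, the integrin genes ITGAV (17.3 ± 0.876 FPKM) and ITGB3 (1.73 ± 0.228 FPKM) were called above, ITGB3 not in TPM (limma adjusted p = 0.0514). The thrombospondin gene THBS2 was called below at 0.150 ± 0.00404 FPKM. THBS1 had 0.784, 0.282 and 0.168 FPKM and was called below (limma adjusted p = 0.0494), a call lost without replicate 2 (0.208) and without replicate 3 (0.143). These 2 calls above and 2 below stood beside 70.6% and 24.6% of protein-coding genes tested. QPCTL, whose enzyme forms the CD47 end that SIRP alpha binds, was called above at 7.09 ± 0.523 FPKM, beside SNRPD2 on the other strand at 555 ± 16.9 FPKM, so its value is uncertain. It was singled out after its values were seen.

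Both nectin family ligands were high and closely reproduced. PVR, which encodes the poliovirus receptor CD155, had 31.7, 32.3 and 32.1 FPKM in replicates 1, 2 and 3 (32.0 ± 0.319 FPKM, log2 4.87, SE 0.0649, limma adjusted p = 2.99e-05). NECTIN2, which encodes CD112, had 15.9, 15.8 and 15.8 FPKM (15.8 ± 0.0694 FPKM, log2 3.86, SE 0.0646, limma adjusted p = 3.25e-05). PVR exceeded NECTIN2 by 1.01 ± 0.02 log2 units, higher in 3 of 3 libraries, and the means stood at a ratio of 2.02 (exact sign-flip p = 0.25, two-sided, the smallest possible, 0.292 adjusted). The coefficient of variation over libraries was 0.995% for PVR and 0.439% for NECTIN2, beside 11.2% for CD276 and 6.64% for CD47. Among protein-coding genes within 2-fold of its level, 2.34% varied less than PVR and 0.383% less than NECTIN2, beside 87.4% for CD276 and 51.7% for CD47. In replicates 1, 2 and 3 the estimated reads were 2140, 2910 and 4340 for PVR and 778, 1030 and 1550 for NECTIN2. Counting error at such numbers exceeds both coefficients of variation, so this closeness may not recur in other libraries. Each overlaps an antisense gene, AC243964.2 at 0.197 ± 0.0753 FPKM for PVR and AC011481.2 at 0.848 ± 0.0723 FPKM for NECTIN2, both far lower. PVR also overlaps CEACAM19 on its own strand, at 0.557 ± 0.106 FPKM.

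Other nectins and nectin-like molecules, adhesion proteins of the same family, gave 6 calls above 1 FPKM among 7 genes (median 18.5 FPKM), beside 70.6% of protein-coding genes. CADM1, the ligand of the lymphocyte receptor CRTAM, was highest at 116 ± 1.52 FPKM, above PVR and CD276, followed by CADM4 (28.9 ± 3.85 FPKM) and CADM3 (24.8 ± 1.55 FPKM). CADM3 overlaps CADM3-AS1 on the other strand (31.9 ± 2.73 FPKM) and is uncertain. NECTIN4, the lowest, was called neither (0.973 ± 0.478 FPKM, limma adjusted p = 0.697). The receptors through which immune cells read the ligands were mostly low (median 0.0147 FPKM). Of 17 genes, 9 passed the test below 1 FPKM and 3 above, and 5 stood at 0 throughout. Protein-coding genes tested went mostly the other way, with 24.6% called below and 70.6% above. TIGIT was listed at 0, PDCD1, which encodes PD-1, had 0, 0 and 0.028 FPKM, and KLRK1, which encodes NKG2D, 0.025, 0.019 and 0 FPKM. The 3 called above were TMIGD2, the receptor of HHLA2 (4.27 ± 0.157 FPKM), the NECTIN2 receptor PVRIG (2.91 ± 0.0199 FPKM) and CD226, which encodes DNAM-1 (1.88 ± 0.332 FPKM). CD226 overlaps DOK6 on the other strand at 13.0 ± 0.149 FPKM, and PVRIG overlaps STAG3 on its own strand (11.5 ± 0.355 FPKM) and CASTOR3 on the other (39.9 ± 2.64 FPKM), so those values are uncertain.

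All 3 NKG2D ligand genes lay in the low set, beside CD274, VTCN1 and PDCD1LG2. ULBP2 was the highest of them, with 0.605, 0.548 and 0.359 FPKM in replicates 1, 2 and 3, about 15.0, 18.1 and 17.9 reads. It was called below 1 FPKM (0.504 ± 0.129 FPKM, log2 -0.89, SE 0.162, limma adjusted p = 0.0116), a call lost without replicate 2 (0.0621). MICA had 0.022, 0.017 and 0.056 FPKM, about 1.0, 1.0 and 5.0 reads, above its floor in replicate 3 and under it in the other two. MICB had 0.022, 0.016 and 0.021 FPKM, about 1.1, 1.0 and 2.0 reads, under its floor of 0.0618, 0.0464 and 0.0308 FPKM throughout. Both were called below 1 FPKM (limma adjusted p = 0.000169 for MICA and 4.39e-05 for MICB). MICA and MICB are close relatives of each other, and so are the ULBP genes. No source used here says how the counting split shared reads, so which gene of each group holds these few reads is uncertain. Of the table's identifiers, 3614 have no name in GENCODE 29, and whether any of them is a copy of MICA, MICB or an HLA gene on another haplotype, which could hold reads of these genes, was not tested. Of the 5 other NKG2D ligand genes, 4 were called below and RAET1L was listed at 0. Called below were 43.7% of all genes tested and 24.6% of the protein-coding ones. ULBP3 (0.416 ± 0.0818 FPKM) and ULBP1 (0.343 ± 0.0615 FPKM) stood near ULBP2, and RAET1E (0.0547 ± 0.0185 FPKM) and RAET1G (0.0350 ± 0.0328 FPKM) near MICA. None of the 8 NKG2D ligand genes read here reached 1 FPKM in any library.

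The promoters of MICA and MICB are printed because the genes shared their near-zero level and are known as heat shock responsive. They span chr6:31403345-31403644 and chr6:31497895-31498194, both on the plus strand (RefSeq, GRCh38.p14), and capitals mark matches, on either strand, to the heat shock element GAANNTTC, the GC box GGGCGG and the CCAAT box CCAAT:
MICA: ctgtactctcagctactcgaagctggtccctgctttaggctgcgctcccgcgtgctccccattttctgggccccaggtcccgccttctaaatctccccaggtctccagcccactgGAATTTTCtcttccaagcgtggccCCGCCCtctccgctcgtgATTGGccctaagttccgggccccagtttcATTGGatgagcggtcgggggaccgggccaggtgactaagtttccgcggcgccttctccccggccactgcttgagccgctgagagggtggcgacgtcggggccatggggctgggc
MICB: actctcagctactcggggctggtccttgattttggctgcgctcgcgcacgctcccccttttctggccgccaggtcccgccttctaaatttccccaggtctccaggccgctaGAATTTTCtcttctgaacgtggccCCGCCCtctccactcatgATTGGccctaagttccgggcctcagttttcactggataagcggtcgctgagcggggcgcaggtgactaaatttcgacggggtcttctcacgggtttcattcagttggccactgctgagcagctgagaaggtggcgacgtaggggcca
The windows were identical at 246 of 284 aligned bases (86.6%). Each holds a heat shock element match, at -135 in MICA and -139 in MICB, then a GC box match at -111 and -115 and a CCAAT match at -93 and -97, in the same order. MICA has a further CCAAT match at -64. Of all RefSeq promoters of this length 6.77% hold the heat shock letters, and none of the other 8 promoters of these ligand genes did.

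Genes that feed stress or DNA damage signals to NKG2D ligands all passed the test for a level above 1 FPKM, 9 of 9 (median 33.2 FPKM), beside 45.5% of all genes tested and 70.6% of the protein-coding ones. The heat shock factor gene HSF1 had 68.9 ± 7.92 FPKM, the stress factor gene ATF4 61.1 ± 2.34 FPKM and the checkpoint kinase gene ATR, the lowest, 8.15 ± 1.31 FPKM. HSF1 overlaps DGAT1 (21.5 ± 1.35 FPKM) on the other strand, so its value is uncertain. Of 7 genes linked to shedding of NKG2D ligands from the surface, 6 were called above and 1 below, a split near that of protein-coding genes (70.6% and 24.6%). The matrix metalloprotease gene MMP2 had 318 ± 7.41 FPKM, the disulfide isomerase gene PDIA6 151 ± 8.41 FPKM and the sheddase gene ADAM10 82.7 ± 1.98 FPKM. MMP9 was the one called below, at 0.161 ± 0.0471 FPKM, beside SLC12A5-AS1 on the other strand at 1.74 ± 0.164 FPKM, so its value is uncertain.

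Among 21 other ligands of NK, T and myeloid receptors, 10 were called above 1 FPKM, 7 below and 1 neither, with 3 listed at 0 (median 0.995 FPKM). Of the protein-coding genes tested, 70.6% were called above and 24.6% below. CD24, the ligand of macrophage Siglec-10, was highest at 381 ± 22.2 FPKM. BAG6, which gives rise to a ligand of NKp30 and has other roles in protein quality control, had 281 ± 5.77 FPKM, and PCNA, the replication clamp that also engages NKp44, 122 ± 22.0 FPKM. CEACAM1, an inhibitory ligand, was lowest of those above 0, at 0.102 ± 0.0297 FPKM, beside LIPE-AS1 on the other strand at 5.27 ± 2.16 FPKM. Of 7 genes of HLA class I and its loading, which NK inhibitory receptors read, 4 were called above and 3 below, beside the same protein-coding shares. B2M had 238 ± 19.3 FPKM and HLA-C 19.1 ± 1.63 FPKM, while the peptide transporter gene TAP1 was lowest at 0.0647 ± 0.0361 FPKM. HLA genes share reads with their paralogs, so their single values are uncertain.

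**Figure D2:**
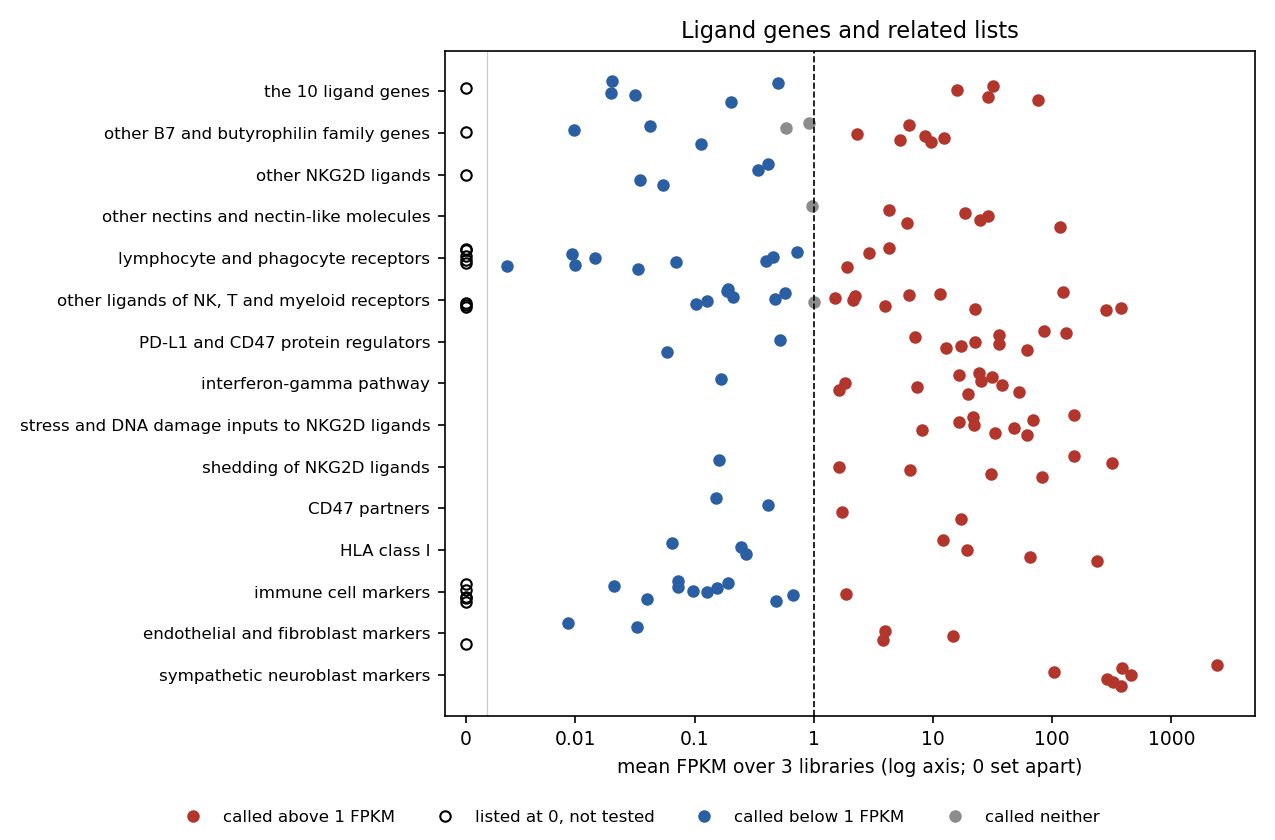
Mean FPKM over 3 libraries (log axis, listed zeros as open points set apart) of the 10 ligand genes and of each related list, 1 point per gene, coloured by its call against 1 FPKM. The 10 ligand genes leave a gap on both sides of 1 FPKM, the other NKG2D ligands all lie to the left of it, and the stress and DNA damage genes all lie to the right.

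On their chromosomes 6 of the ligand genes stand as 3 pairs. CD274 and PDCD1LG2 lie 40 kb apart on chromosome 9, MICA and MICB 79.6 kb apart on chromosome 6, each with no protein-coding gene between. PVR and NECTIN2 lie 182.6 kb apart on chromosome 19 with 4 wholly between, not counting CEACAM19, which overlaps PVR. Low and high genes were interleaved there. Of the genes next to the PD-1 ligand genes, PLGRKT, a plasminogen receptor gene, had 30.2 ± 0.692 FPKM and RIC1 8.86 ± 0.837 FPKM. Between PVR and NECTIN2, CEACAM16 and CBLC were listed at 0, while BCL3 averaged 0.906 ± 0.407 FPKM and BCAM 1.1 ± 0.762 FPKM; TOMM40, 1.3 kb beyond NECTIN2, had 36.7 ± 4.37 FPKM. Beside MICA, HLA-B had 0.271 ± 0.0402 FPKM and HLA-C 19.1 ± 1.63 FPKM. These neighbours were chosen by position only.

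**Figure D3:**
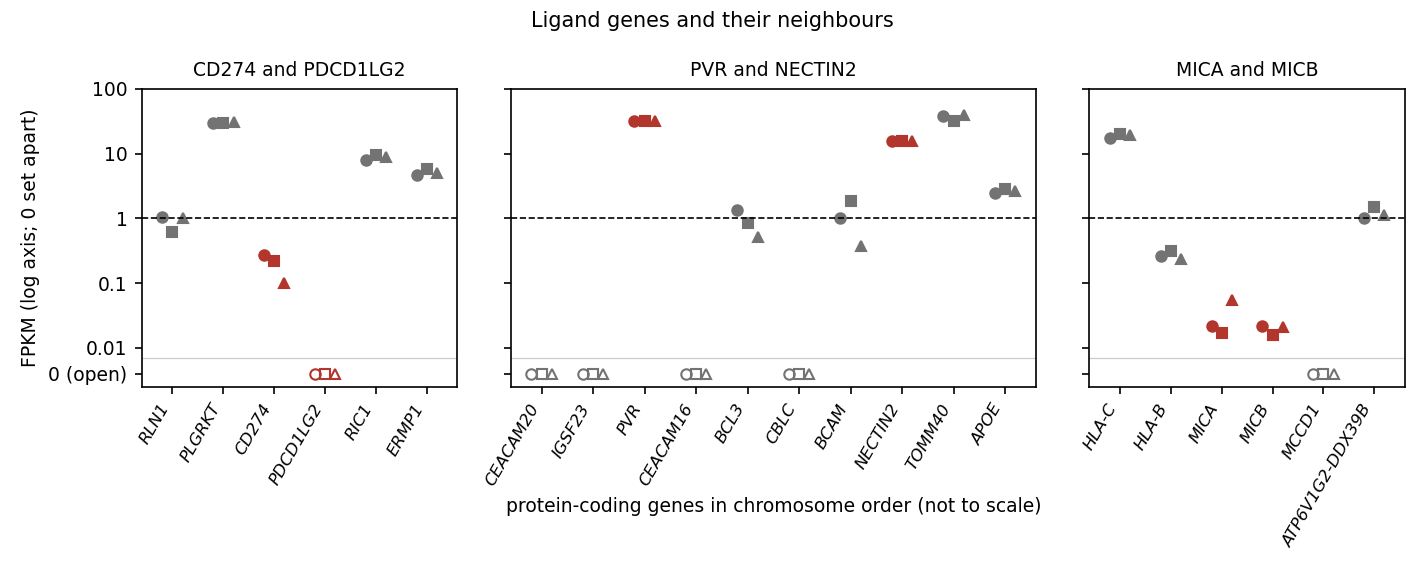
FPKM per library (circles, squares and triangles for replicates 1, 2 and 3, log axis, listed zeros as open points set apart) of 3 pairs of ligand genes (red) and the protein-coding genes between and beside them (grey), in chromosome order and not to scale. CEACAM19, which overlaps PVR, is not drawn. CD274 and PDCD1LG2 lie under neighbours that reach 31.0 FPKM, and PVR and NECTIN2 flank genes listed at 0.

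The CpG ratio of the promoters, observed over expected sites, overlapped between the high and the low ligand genes. The number of CpG sites per window did not overlap, with 26 to 45 in the high genes and 7 to 22 in the low ones. RefSeq promoters, 10 in all, were matched for 9 of the 10 genes, all but PDCD1LG2. The ratio of observed to expected CpG sites was 1.012 for CD47, 0.888 for NECTIN2, 0.795 for PVR and 0.764 and 0.648 for those of CD276, among the high genes. Among the low ones it was 0.910 for CD274, 0.798 for ULBP2, 0.769 for MICB and 0.675 for MICA, and 0.272 for VTCN1. Of 9607 protein-coding genes with a ratio of at least 0.6, 83.8% had a mean above 1 FPKM, against 11.8% of 2588 genes under 0.3. CD274, ULBP2, MICB and MICA thus belonged to the CpG-rich class in which most genes exceeded 1 FPKM, while VTCN1 belonged to the CpG-poor class in which few did. GC content was 67.3% to 80.3% in the promoters of the high genes and 56.7% to 64.7% in those of the low ones, without overlap. This is a description of 10 windows, made after the values were seen, and was not tested.

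**Figure D4:**
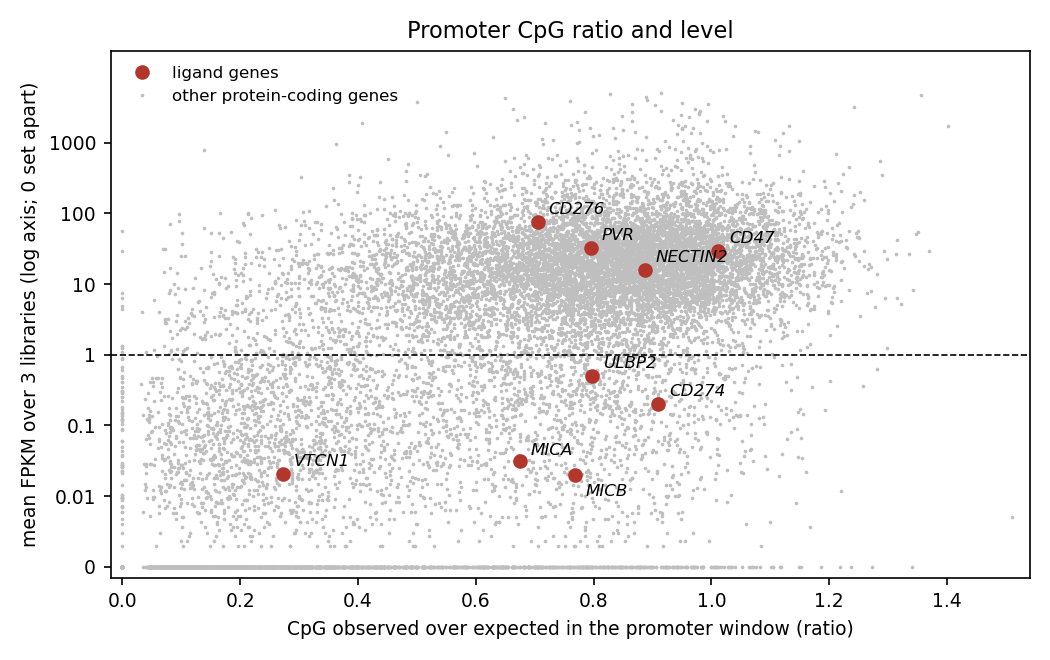
Mean FPKM over 3 libraries (log axis, zeros set apart, values under 0.002 drawn at 0.002) against the ratio of observed to expected CpG sites in the RefSeq promoter window, as the mean over a gene's promoters, for 14830 protein-coding genes (grey) and 9 ligand genes (red). CD274, ULBP2, MICA and MICB lie at ratios from 0.675 to 0.910 but under the dashed line at 1 FPKM, and VTCN1 lies at 0.272.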

How the data were processed

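Libraries were stranded mRNA preparations from 500 ng of total RNA, read as 50-base ends, per the labels. The authors deposited 1 table of FPKM values for 60660 Ensembl identifiers; hg38 is the build in the submitters' processing notes, which list TopHat2 2.1.1 and Cufflinks 2.2.1 beside FastQC 0.10.1 and bcl2fastq. Annotation release and strand setting: not given in the sources used here. Of the identifiers, 57046 matched GENCODE 29 (GRCh38, the same assembly as hg38) and 3614 did not; a name shared by several identifiers took the one with the highest mean. Missing values (28 genes) stayed missing, and no ligand gene had one.

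FPKM is not a count, so no count model was used. The 31736 genes with any value above 0 entered limma 3.58.1 (R 4.3.3), whose two-sided moderated test of the mean set log2(FPKM + 0.1) against the value at 1 FPKM, a scale that understates distances of low genes. The script was tested on simulated data. Depth came from genes with 1 annotated transcript: with a fragment of 200 bases assumed, low values converted to reads lay within 0.1 of a whole number in 97.6% to 97.7% of cases. Reads and floors of a gene use its longest coding transcript and are estimates. Pairs were compared within libraries by an exact sign-flip test.

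Promoters (250 bases before to 50 after a start) came from RefSeq; pandas 2.3.3, numpy 2.4.6, biopython 1.88 and matplotlib 3.10.9 ran under Python 3.11.15. The ligand genes and lists were chosen with earlier results of these data known. Named are all 10 ligand genes, the 3 highest and the lowest measured gene of each list, all of 2 short lists (other NKG2D ligands, CD47 partners), 5 receptors and genes on the other strand of a ligand gene; others were added after their values were seen. A few list genes under this rule are not reported here. Alternatives were pseudocounts, scalings, filters, levels, a count without a test and each library left out. That flasks were separate is stated in the labels, so p-values concern flasks of 1 line. The moderated test combines the spread of a gene with that of all genes tested. Its SE is thus not the spread between flasks of that gene alone. NECTIN2, with a coefficient of variation of 0.439%, had an SE of 0.0646 log2 units. For MICB and VTCN1, at a few reads, the pseudocount also flattens differences between libraries. Their small adjusted p therefore does not measure how well flasks agreed.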

Additional observations from a re-analysis of the deposited data

How the results depend on the processing

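Of 552 alternative values, 521 kept their direction and side of the threshold, or stayed within 1.5 times for a count. None of the log2 values among them changed sign, while the counts have no sign to change. The number of ligand genes called above 1 FPKM was 4 under all 13 alternatives, and the number called below was between 4 and 5 with each replicate left out, and 2 at a mean of at least 0.1 FPKM, where MICA, MICB and VTCN1 were not tested. Over all genes the count called below was 40037 with no filter, 5921 at a mean of at least 0.1 FPKM and 4205 with protein-coding genes only, beside 13853. At a level of 5 FPKM, genes called above numbered 0 receptors, 6 other ligands, 1 CD47 partner, 0 immune and 1 endothelial or fibroblast marker, and genes called below numbered 6 B7 and butyrophilin, 1 nectin, 11 other ligand, 3 interferon-gamma and 2 shedding genes. At a mean of at least 0.1 FPKM, those below numbered 1 B7 or butyrophilin gene, 2 NKG2D ligands, 3 receptors, 1 PD-L1 or CD47 regulator, 1 CD47 partner, 5 immune and 0 endothelial or fibroblast markers. Regulators below numbered 1 to 2 with a replicate left out (QPCT was lost without replicate 1, adjusted p = 0.0684, and without replicate 3, 0.0635) and 1 at a level of 0.5 FPKM. CD47 partners below numbered 1 to 2 with a replicate left out, and 1 with a pseudocount of 0.01, at 0.5 FPKM or with no filter; 1 was above in TPM. TPM shifted replicates 1, 2 and 3 by -0.47, -0.54 and -0.46 (log2), like a higher level. No paired comparison of conditions was possible because the labels give 1 group. Precision is limited by depth for MICA, MICB and VTCN1, at a few reads per library.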

Other observations

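Several low genes of the lists shared the pattern of CD274 and ULBP2 over libraries. Of 31 genes, ligand genes and lists together, with a mean from 0.1 to below 1 FPKM, 16 were lowest in replicate 3 (51.6%), beside 749 of 2212 protein-coding genes in that range (33.9%). Among them were the NKG2D adaptor gene HCST with 0.594, 0.434 and 0.168 FPKM, the galectin gene LGALS9 with 0.718, 0.642 and 0.347 FPKM, the cytotoxic granule gene NKG7 with 0.291, 0.241 and 0.037 FPKM, and TNFRSF14, the gene of the BTLA ligand HVEM, with 0.297, 0.166 and 0.1 FPKM, in replicates 1, 2 and 3. LGALS9 overlaps AC015688.4 on its own strand, which had 4.009, 1.358 and 0.549 FPKM in replicates 1, 2 and 3, so the LGALS9 values are uncertain. Replicate 3 was also the deepest library by the estimate, and the part of depth in these values was not tested. The genes and the pattern were chosen after the values were seen, and CD274 and ULBP2 are themselves counted among the 16. Higher genes of the lists were also lowest in replicate 3 more often than protein-coding genes. The shares were 30.8% beside 28% from 1 to below 10 FPKM, and 34% beside 24% from 10 to below 1000 FPKM.

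HHLA2, a B7 family gene not among the 10, was highest in replicate 3, with 0.254, 0.597 and 0.910 FPKM, and passed the test in neither direction (limma adjusted p = 0.108), though below in TPM (0.0299).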
